A study of Mus musculus with 11 samples.

Results

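The ribosome-bound mRNA of hippocampal astrocytes in fed mice was described from 4 arrays, which are all the arrays labelled fed among the 11 of the study. In the mice, an epitope-tagged ribosomal protein (Ribo-Tag) is switched on by Aldh1l1-Cre, whose promoter is active in astrocytes, so that tagged ribosomes and the mRNA on them can be precipitated from whole tissue. The fed mice were given chow for 4 weeks. The sample titles and the methods name the hippocampus as the tissue, while the paper's Results describe the arrays as forebrain astrocytes, and the titles were followed here. Both the tag and the Cre were also carried by the 3 fasted and 4 ketogenic samples, which are not compared here. Each fed array is labelled as a biological sample of its own. The mice were adult, and the methods give 9 weeks as the usual age of fed and fasted mice without naming the Ribo-Tag animals. Sex and whether a pull-down held 1 animal or several are not stated for them, so that an error given below is the spread between these 4 samples. The values are log2 levels from RMA, and 20259 genes were ranked by their mean over the 4 arrays.

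Astrocytes take up the glutamate that neurons release and return it as glutamine, buffer potassium, are coupled to each other by gap junctions and wrap blood vessels with end feet rich in the water channel aquaporin-4. They hold most of the brain's glycogen, make lactate and L-serine, and supply neurons with cholesterol in apolipoprotein E particles. A pull-down of tagged ribosomes enriches the mRNA of the cells that carry the tag and also carries over mRNA from other cells of the tissue, in an amount that differs from one preparation to the next.

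Odorant receptor genes (Olfr), which with few exceptions are off in brain, served to show how a gene with little or no mRNA reads here. Over the 862 on the array the median was 2.46 log2, and the 95th percentile was 4.23, 4.28, 4.14 and 4.08 on fed arrays 1 to 4 (4.18 ± 0.09, SD, n = 4). This percentile was taken as the background of each array. A gene was called above background when limma's one-sided test on the 4 differences from it passed a Benjamini-Hochberg adjusted p of 0.05 over all genes. Of the 20259 genes, 11243 (55.5%) were called and 9016 were not, and 6846 were called when the 99th percentile of the Olfr genes (5.17 on average) was taken as background. Among the Olfr genes themselves 21 of 862 were called, a low count that the percentile fixed in advance and that is no check of the call. In chemosensory families that did not set the background, 1 of 111 vomeronasal receptor genes and 0 of 34 bitter taste receptor genes were called. Their medians (2.32 and 2.38) were near that of the Olfr genes, so these counts give no rate of false calls either. Of 38 genes that mark other tissues, 23.7% were called. Probe sets differ in how strongly they hybridise, so that the order of values between genes is an order of array readings and not of transcript numbers, and a value within the background does not show that an mRNA is absent. Nor does a call alone show that an mRNA is present. Where a gene had several sets the one with the highest mean over all 11 arrays was read, and 72.6% of the genes with several sets were called against 52.4% of those with 1. The pairing of sets with gene symbols was taken as given. Whether each set reports its gene alone was not tested.

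**Figure D1:**
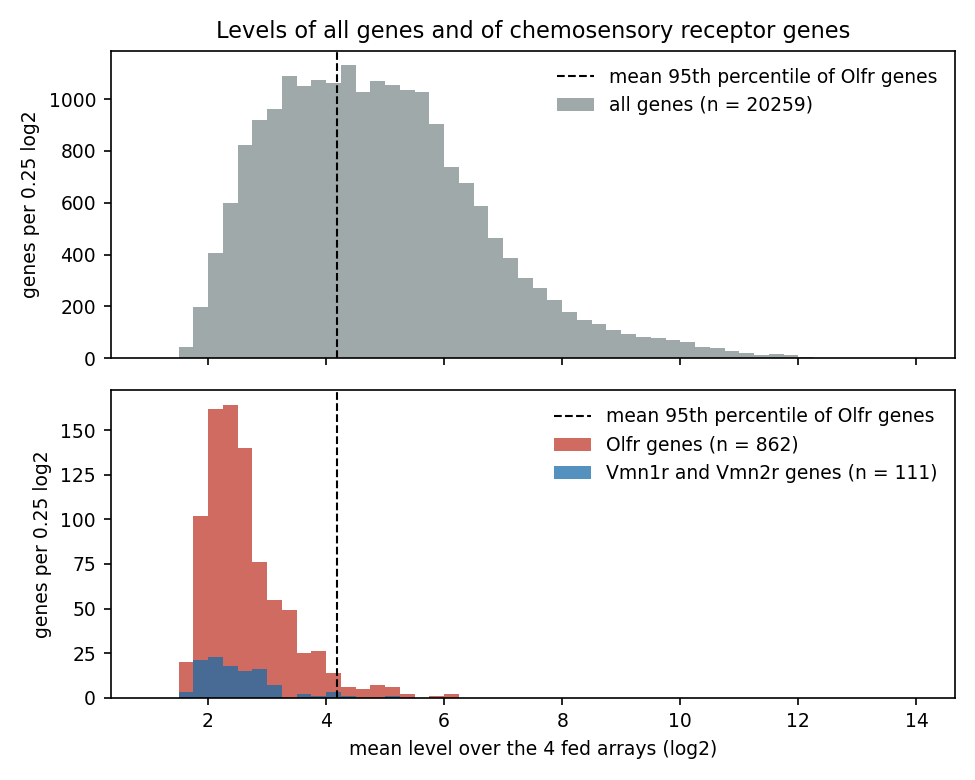
Number of genes per 0.25 log2 (vertical axis) against the mean level over the 4 fed arrays (horizontal axis, log2), for all 20259 genes above and for 862 Olfr and 111 vomeronasal receptor genes below; the dashed line is the mean of the Olfr 95th percentiles, 4.18. The receptor genes lie mostly left of the line, and the levels of all genes run on to 13.38 with no gap between them and the background.

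The arrays were alike, with a median SD of 0.16 log2 per gene, and fed array 2 stood apart. Across genes, which are not independent replicates, its correlation with the other arrays was 0.971 to 0.972, against 0.987 to 0.989 among the other 3, and it lay farthest from the median of the 4 in 47.2% of all genes. Of the 15 called genes with the largest SD, 10 were lowest and 4 were highest on it. Cacng7, which encodes an auxiliary subunit of AMPA receptors, read 10.02, 7.54, 10.34 and 10.27 on fed arrays 1 to 4, and Usf2, a basic helix-loop-helix transcription factor, read 8.88, 6.13, 9.10 and 9.20. Both were thus close together on the other 3 arrays and far lower on fed array 2, though still above its background. Without fed array 2, 11521 genes were called.

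Aldh1l1 and Slc1a3 are shown here with an odorant receptor gene because they frame the comparison with the background, the first as the gene whose promoter marks the tagged cells and the second as the highest of the 5 markers chosen to check the cell type. The lines give the 250 bases before each gene's annotated start from RefSeq on GRCm38.p6, a later build than the mm9 of the arrays, 5′ to 3′ on the gene's strand, with each CG in capitals. Aldh1l1 lies at chr6:90550543-90550792, plus strand, Slc1a3 at chr15:8710808-8711057, minus strand, and Olfr616, the receptor with a promoter in the table whose level (2.47 ± 0.09) was nearest the family's median, at chr7:103565278-103565527, minus strand.
Aldh1l1: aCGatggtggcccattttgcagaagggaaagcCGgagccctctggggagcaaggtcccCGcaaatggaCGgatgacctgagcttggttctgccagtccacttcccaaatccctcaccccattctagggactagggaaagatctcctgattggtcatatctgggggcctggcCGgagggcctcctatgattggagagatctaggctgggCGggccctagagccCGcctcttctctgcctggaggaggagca
Slc1a3: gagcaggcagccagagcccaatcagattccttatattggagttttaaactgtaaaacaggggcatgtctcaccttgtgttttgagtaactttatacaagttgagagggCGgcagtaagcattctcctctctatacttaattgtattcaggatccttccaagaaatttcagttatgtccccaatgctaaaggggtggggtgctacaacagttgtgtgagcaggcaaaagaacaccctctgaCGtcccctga
Olfr616: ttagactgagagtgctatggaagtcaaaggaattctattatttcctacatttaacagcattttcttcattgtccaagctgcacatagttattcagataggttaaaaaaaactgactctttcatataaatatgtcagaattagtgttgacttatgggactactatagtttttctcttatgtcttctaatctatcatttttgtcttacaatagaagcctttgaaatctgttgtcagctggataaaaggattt

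The stretch before Aldh1l1 held 7 CG pairs at 59.6% G and C, that before Slc1a3 held 2 at 44.8%, and that before Olfr616 held 0 at 31.2%. Over the 38 of 45 measured astrocyte markers with a promoter in the table, the median was 55.4% G and C with 7.5 CG pairs, close to the 52.4% and 6 of all 27025 genes listed. The 717 of 862 Olfr genes with a promoter had a median of 34% with 1 CG pair. The letters TATAAA, searched on both strands, occurred in 18.4% of the astrocyte marker promoters, 39.1% of the Olfr promoters and 14.3% of all. The genes used as background thus had promoters of another base composition than most genes, and such matches are descriptions of the letters and not of bound sites.

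Ribosomal protein genes and a few very bright sets headed the ranking. The highest mean was that of AY036118 (13.38 ± 0.08, SD, n = 4), followed by Ptprz1 (13.10 ± 0.06), a receptor tyrosine phosphatase of glia, Rn28s1 (13.01 ± 0.17), which is the large ribosomal RNA, Cacna1i (12.98 ± 0.18), a T-type calcium channel, and Lars2 (12.57 ± 0.19), the mitochondrial leucyl-tRNA synthetase. Of the 25 highest genes, 9 encode ribosomal proteins and 21 had several probe sets. How far the highest set stood above the others differed between genes. Cacna1i read 7.77 and Lars2 8.77 when the median over their sets was taken in place of the highest. Ptprz1 remained at 11.57 by that measure. The 25 also held Ogdh, Hk1 and Gapdh of energy metabolism and Ndrg2, which is an astrocyte marker with 1 set. In all, 248 genes had a mean over 10, and 71 genes were among the 100 highest on each of the 4 arrays (88 on the 3 arrays without fed array 2).

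Astrocyte markers were high on every array, and markers of other cell types of the hippocampus read above background as well. Of 45 measured astrocyte markers 44 were called (97.8%, against 55.5% of all genes), with a median of 8.06, and 35 ranked among the 2025 highest genes. The share called did not set them apart, as it was 96% for neuron markers and 100% for oligodendrocyte markers. Slc1a3, the glutamate transporter GLAST, read 11.41, 11.43, 11.50 and 11.43 on fed arrays 1 to 4. Mlc1, a membrane protein of end feet, read 10.16, 10.23, 10.21 and 10.08. Aqp4, the water channel aquaporin-4, read 6.98, 7.51, 7.19 and 7.19, and Aldh1l1, the folate enzyme whose promoter drives the Cre, read 6.81, 7.12, 6.93 and 6.98. These 4 markers were above background on all 4 arrays with little spread between them (adjusted p from 1.36e-08 for Slc1a3 and Mlc1 to 1.92e-07 for Aqp4, limma). Gja1, which encodes connexin 43, the main gap junction protein of astrocytes, read 4.02, 4.25, 4.11 and 4.02, and was not called (adjusted p = 1, limma), though it was called, 0.29 log2 above, when vomeronasal receptor genes set the background. It had a single probe set, and its level lay below the Olfr background on each of the 4 arrays. Slc1a2, a defining marker too, was on the array only in a set shared with another gene symbol and was not used.

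Beside Slc1a3, the members above Mlc1 in the marker list were Ndrg2 (11.81 ± 0.06, SD, n = 4), Gpr37l1 (10.69 ± 0.11), an orphan receptor of glia, Sparcl1 (10.68 ± 0.12), which encodes the synapse-forming protein hevin, and Fam107a (10.48 ± 0.27). Aldoc, the aldolase of astrocytes, followed at 9.76 ± 0.14. Gfap, the intermediate filament gene that rises in reactive astrocytes, read 8.01, 8.03, 8.01 and 8.17. Across arrays the list mean ran from 8.01 on fed array 1 to 8.21 on fed array 3, and 28 of the 45 members were lowest on fed array 1, where 24% of all genes were lowest. The member with the largest SD was Mt3, the brain metallothionein, singled out after its values were seen, which read 9.00 on fed array 3 and 7.42 to 7.73 on the others. Its level was above background on each of the 4 arrays all the same.

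Neuron markers were called in 24 of 25 (median 7.46), those of excitatory and subfield neurons in 21 of 21 (6.84) and those of interneurons in 12 of 13 (7.04), against 55.5% of all genes. Nefm, the medium neurofilament, read 10.24, 9.25, 10.37 and 10.45, and Camk2a, the calcium-dependent kinase of excitatory synapses, read 9.36, 9.55, 9.31 and 9.35. Snap25, of the synaptic vesicle fusion machinery, read 7.61, 7.71, 7.67 and 7.66. Transcripts of neurons were therefore within the levels of the astrocyte markers, and their list mean was below the astrocyte mean by 0.60, 0.82, 0.76 and 0.72 log2 on fed arrays 1 to 4. That difference compares different probe sets and is no measure of purity, which was not measured, since the study's 11 arrays hold no unpurified tissue. In such pooled RNA, fewer cells of a type and less RNA per cell cannot be told apart.

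Genes that mark the hippocampal fields were above background. Prox1, a transcription factor of dentate granule cells, read 9.76, 10.02, 9.22 and 9.22, Wfs1, an endoplasmic reticulum protein of CA1 pyramidal cells, read 8.01, 7.04, 7.88 and 7.78, and Grik4, a kainate receptor subunit of CA3, read 8.97, 6.65, 8.21 and 7.98. Fed array 2 was highest for Prox1 and lowest for Wfs1 and Grik4, an order that other genes of the same fields in the list did not share throughout. Neurod6, a transcription factor of pyramidal neurons, was at 9.66 ± 0.18 and Slc17a7, which loads glutamate into vesicles of excitatory neurons, at 8.41 ± 0.11. Among interneuron genes Gad2, which makes GABA, was at 10.58 ± 0.16 by the highest of 3 sets and 9.44 by their median. The peptide genes Sst and Npy were at 9.72 ± 0.45 and 9.26 ± 0.13, and Pvalb, a calcium-binding protein of fast-spiking cells, at 8.28 ± 0.41. Erbb4, the neuregulin receptor of interneurons, was not called (4.02 ± 0.09).

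Oligodendrocyte markers were called in 17 of 17 (100%, against 55.5% of all genes), with a median of 7.44. Ermn, a cytoskeletal protein of myelinating cells, read 9.12, 9.57, 9.27 and 9.12, and Cldn11, a tight junction protein of myelin, read 9.15, 9.18, 9.16 and 9.15. Mag, an adhesion molecule of the inner myelin layer, was at 8.42 ± 0.14 and Mbp, the myelin basic protein, at 7.44 ± 0.18. Of the 12 precursor markers 10 were called (83.3%), with a lower median of 5.67. Among them were Olig1 (8.04 ± 0.45), a transcription factor of the lineage, Gpr17 (7.81 ± 0.14), a receptor of cells about to differentiate, and Pdgfra (6.04 ± 0.03), the growth factor receptor of the precursors. Lhfpl3 was within the background (3.22 ± 0.03).

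Microglia markers were called in 17 of 18 (94.4%, against 55.5% of all genes), with a median of 6.61, and differed between arrays. Tyrobp, a signalling adaptor, read 7.79, 8.21, 7.67 and 7.77, Cx3cr1, the fractalkine receptor, 7.68, 7.99, 7.06 and 7.54, and P2ry12, the purinergic receptor of resting microglia, 6.5, 6.82, 6.21 and 6.32. All were lowest on fed array 3. So were 17 of the 18 measured members, where 19.5% of all genes were lowest on that array, and the list mean was 6.0 there against 6.44 to 6.55 on the others. Ptprc, the leukocyte antigen CD45, was within the background (3.50 ± 0.23). Markers of perivascular macrophages were called in 2 of 5 (40%) and of blood cells in 1 of 4 (25%), against the same 55.5%.

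Vascular genes had the lowest medians of the cell type lists with 12 or more measured members, and their levels differed between arrays. Endothelial markers were called in 14 of 18 (median 4.88) and those of pericytes and smooth muscle in 8 of 14 (median 4.86), a share of 57.1% that is near the 55.5% of all genes. Against the 99th percentile of the Olfr genes 3 of 18 endothelial and 4 of 14 mural markers were called, beside 6846 of all 20259 genes. The list means were 5.27 and 5.32 on fed arrays 1 and 2 and 4.67 and 4.82 on arrays 3 and 4 for the endothelial markers, and 5.43 and 5.48 against 4.97 and 4.95 for the mural ones. Of the 18 endothelial genes 9 were highest on array 1 and 9 on array 2, where 20.6% and 32.3% of all genes were highest. Flt1, a receptor for vascular endothelial growth factor, read 5.62, 6.33, 4.65 and 4.93, Rgs5, a G protein regulator of pericytes, read 7.63, 8.39, 6.35 and 6.25, and Acta2, smooth muscle actin, read 5.37, 6.38, 4.80 and 4.86. All 3 were thus higher on both of the first arrays than on either of the others. Not every member shared this order, and 3 of the 18 endothelial genes were lowest on fed array 2. Cldn5 read 5.18, 4.10, 4.53 and 4.98 and Egfl7 5.35, 5.11, 5.22 and 5.27, and the mural Anpep read 5.69, 4.86, 4.85 and 4.98. Slc2a1, the glucose transporter of the blood-brain barrier that astrocytes also use, varied less (7.04, 7.08, 6.89 and 6.97). Tek and Kdr, receptors of endothelial cells, were not called.

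Markers of choroid plexus and ependyma, which line the ventricle next to the hippocampus, were called in 7 of 12, a share of 58.3% that is near the 55.5% of all genes. They were highest on fed array 4 in 11 of 12, where 24.3% of all genes were highest on that array. Their list mean was 5.95 there and 5.02 to 5.26 on the other 3. Ttr, the thyroxine carrier made by the choroid plexus, read 5.79, 6.03, 6.27 and 7.23, and Sostdc1, a secreted inhibitor of BMP and Wnt signals, read 5.55, 5.12, 5.48 and 7.01. Array 4 alone was high for both. Meningeal fibroblast markers were called in 8 of 10 (median 5.76), with Fmod, a collagen-binding proteoglycan, at 6.75 ± 0.25 and Igf2 at 6.29 ± 0.27. What the vascular, microglial and choroid RNA contributed to other genes' levels was not tested.

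**Figure D2:**
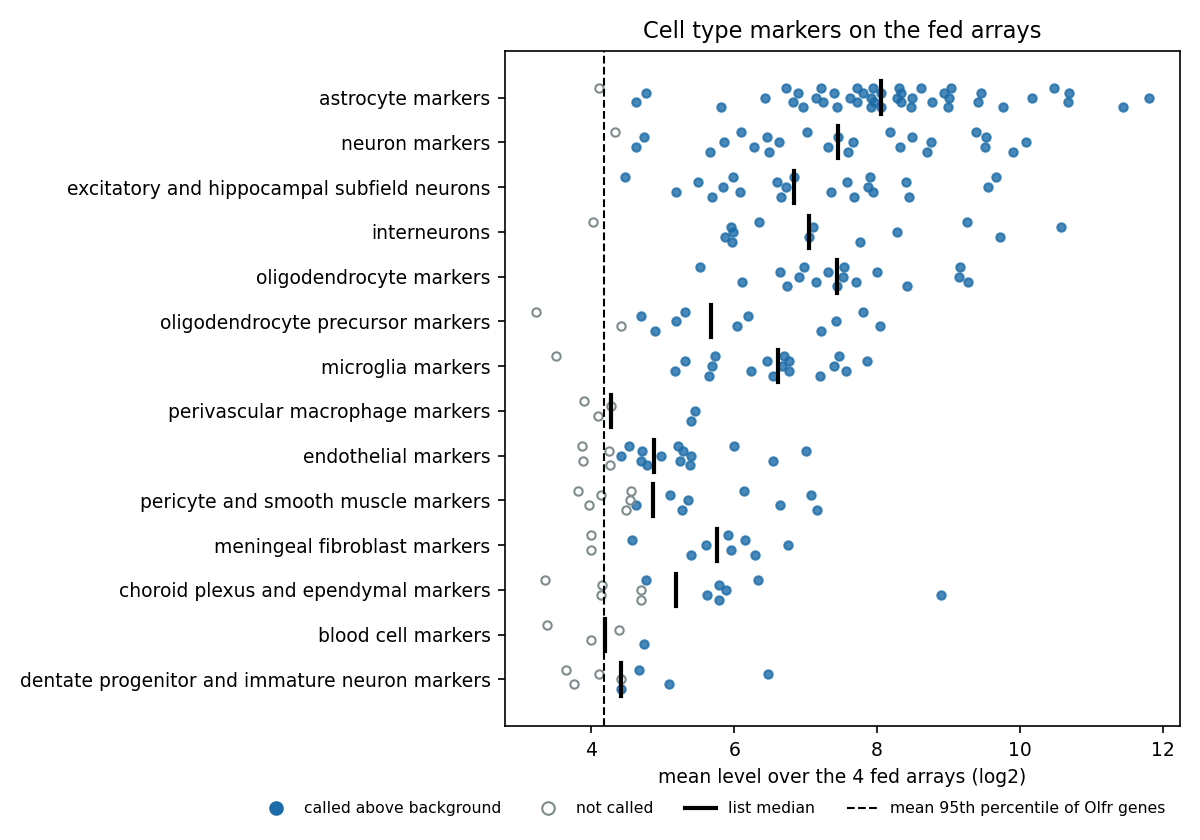
Mean level over the 4 fed arrays (horizontal axis, log2) of each measured marker, by cell type list; filled points were called above background by limma, open points were not, black bars are list medians and the dashed line is the mean background of 4.18. Astrocyte markers have the highest median (8.06), neuron and oligodendrocyte markers overlap with them, and vascular markers lie close to the background (endothelial median 4.88).

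**Figure D3:**
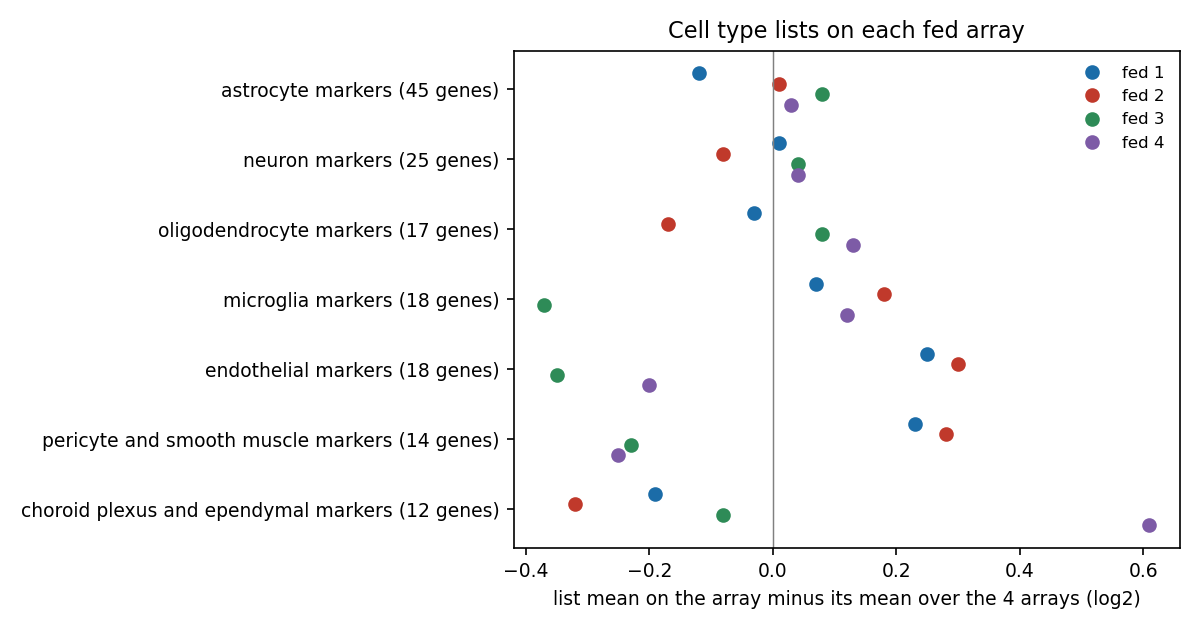
Mean of each cell type list on 1 array minus its mean over the 4 fed arrays (horizontal axis, log2), 1 point per array. Endothelial and mural lists were higher on fed arrays 1 and 2 (5.27 and 5.32 against 4.67 and 4.82 for the endothelial one), the microglial list was lowest on array 3 (6.0) and the choroid plexus and ependymal list was highest on array 4 (5.95).

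Genes that mark other brain regions or other tissues were also on the array. Counted once each, the 222 genes of the cell type lists were called in 85.1%, the 38 of the brain region lists in 44.7% and the 38 genes of other tissues in 23.7%, against 55.5% of all genes. The telencephalic transcription factors Lhx2 (6.35 ± 0.17) and Emx2 (6.26 ± 0.24), which pattern the hippocampus, were above background, and all 4 of this list were called. Hox genes, which mark hindbrain and spinal cord, were called in 4 of 14, while cerebellum markers were called in 3 of 5 (60%) and striatum markers in 3 of 3. Gabra6, a receptor subunit of cerebellar granule cells, was the lowest of the cerebellum list, at 2.58 ± 0.13, and Gdf10 the highest, at 6.30 ± 0.18. Of 10 liver genes 0 were called by limma, and Alb, serum albumin, was at 3.25 ± 0.20. Epidermis genes, however, were called in 3 of 5 (60%) and testis genes in 3 of 6 (50%), near the share of all genes. Single genes of other tissues were called all the same, such as Lct (6.69 ± 0.08), the lactase of the gut, and Myh1 (7.55 ± 0.07), a muscle myosin whose median over 4 sets was 3.04.

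Genes for handling glutamate and GABA had the highest median of the metabolic lists (7.73). All 18 measured were called, and the 307 metabolic genes together were called in 82.4%, against 55.5% of all genes. Beside Slc1a3 stood Got2, the mitochondrial aspartate aminotransferase (10.63 ± 0.08, or 8.80 by the median over its 2 sets), and Slc38a2, a neutral amino acid transporter (9.30 ± 0.13). Glul, glutamine synthetase, which in brain is largely confined to glia, read 8.95, 9.16, 9.06 and 8.98, and 7.85 by the median over its 2 sets. Its values differed little between arrays. Glud1, glutamate dehydrogenase, was at 7.29 ± 0.03, and Slc6a11, the GABA transporter of astrocytes, at 7.72 ± 0.18. Slc1a1 (6.86 ± 0.09), a mainly neuronal glutamate transporter, was also called.

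Of the 17 genes for potassium, water, sodium and bicarbonate 15 were called (88.2%, against 55.5% of all genes), with a median of 6.33. Kcnj10, the inward rectifier Kir4.1 through which astrocytes take up potassium, read 7.46, 7.68, 7.74 and 7.76, and Atp1b2, the glial beta subunit of the sodium pump, read 8.67, 8.72, 8.89 and 8.81. Both were lowest on fed array 1, as were 8 of the 17, where 24% of all genes were lowest. Slc4a4, the sodium bicarbonate cotransporter, read between 6.80 and 6.85. Slc12a5, the neuronal chloride exporter KCC2, was as high as these (8.32 ± 0.08), while Aqp9, an aquaporin that also passes glycerol, was within the background (3.53 ± 0.08).

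Connexins and pannexins ranged from high levels to the background. Gjb6, connexin 30, the partner of connexin 43 in astrocytes, read 8.94, 9.08, 9.12 and 8.88, and Gjb2, connexin 26, was at 7.34 ± 0.31. Gja1 and Gja5 were within the background. Of the 12 connexins and pannexins 7 were called, a share of 58.3% that is near the 55.5% of all genes.

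Genes of glucose uptake, glycolysis and gluconeogenesis were called in 23 of 35 (65.7%, against 55.5% of all genes), and hexokinase and lactate dehydrogenase had isozymes both far above and within the background. Hk1, the hexokinase of brain, read 11.79, 12.23, 11.89 and 11.63, while Hk2 (3.80 ± 0.16) and Hk3 (4.05 ± 0.06) were not called. The median over the 2 sets of Hk1 was 9.08. Among glucose transporters Slc2a1 (7.0 ± 0.08) and the neuronal Slc2a3 (5.48 ± 0.04) were called, whereas the liver form Slc2a2, the insulin-responsive Slc2a4 and the fructose transporter Slc2a5 were not. Ldhb, the heart-type subunit of lactate dehydrogenase, read 10.34, 10.20, 10.50 and 10.61, and Ldha, the muscle-type subunit that favours lactate production, read 6.48, 6.60, 6.84 and 6.77, each the highest of several sets. By these sets the 2 subunits did not overlap on any array. By the median over their sets Ldhb was at 8.95 and Ldha at 5.64. The testis form Ldhc was at 2.63 ± 0.13. Pkm, pyruvate kinase M, was at 8.52 ± 0.15.

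The gluconeogenic genes of liver were not detected above background. Pck1, Fbp1, Fbp2 and G6pc had means from 3.30 to 3.80 and none was called by limma's test. The mitochondrial Pck2 (5.36 ± 0.09) and the ubiquitous glucose-6-phosphatase G6pc3 (6.32 ± 0.10) were called.

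Glycogen genes were called in 13 of 15 (86.7%, against 55.5% of all genes), with a median of 5.64. Ppp1r3c, the scaffold that targets protein phosphatase 1 to glycogen, read 8.19, 8.44, 8.36 and 8.31. Of the phosphorylases that break glycogen down, the brain form Pygb read 7.96, 7.90, 7.96 and 7.90 and the muscle form Pygm 7.15, 7.33, 7.28 and 7.37. Pygb was the higher on every array by its highest set and the lower by the median over its 3 sets (4.08), so their order changed with the set that was read. The liver glycogen synthase Gys2 was within the background (3.19 ± 0.12).

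**Figure D4:**
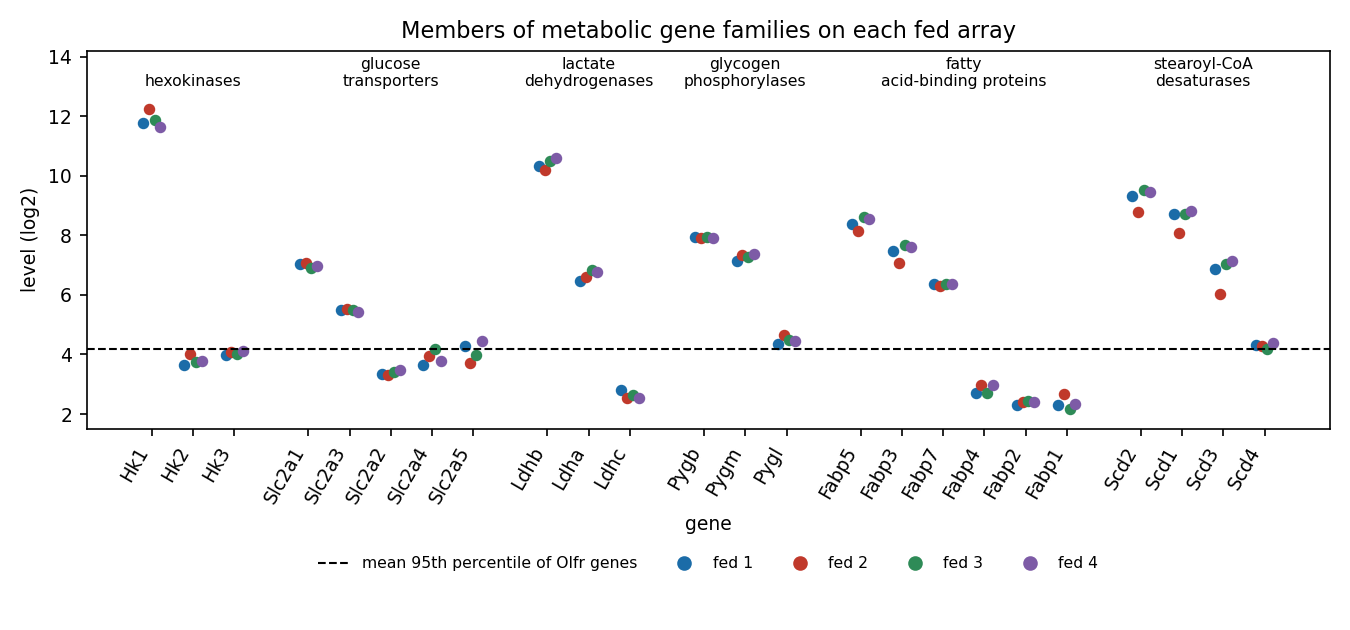
Level on each fed array (vertical axis, log2) of members of 6 metabolic gene families, with 1 point per array; the dashed line is the mean background of 4.18. By the sets read, Hk1, Ldhb, Fabp5 and Scd2 were the highest of their families. Hk2, Hk3, Slc2a2, Ldhc, Fabp1, Fabp2 and Fabp4 lay below the line on all 4 arrays.

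All 8 measured genes of monocarboxylate transport and ketone bodies were called, against 55.5% of all genes, at moderate levels (median 5.79). Slc16a1, the transporter MCT1 of glia and endothelium, read 6.03, 6.72, 5.93 and 6.07, and Slc16a7, the transporter MCT2 of neurons, read 6.40, 5.79, 6.40 and 6.29. Fed array 2 was the highest for the first and the lowest for the second. Oxct1, the enzyme that activates ketone bodies for oxidation, was at 6.0 ± 0.11, and Bdh1, which interconverts the main ketone bodies, at 5.88 ± 0.06.

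Pyruvate entry and the tricarboxylic acid cycle were called in 26 of 27 (96.3%, against 55.5% of all genes), with a median of 6.91. The exception was Pdha2, the testis form of pyruvate dehydrogenase (2.53 ± 0.17). Ogdh, the oxoglutarate dehydrogenase, read 12.20, 12.62, 12.23 and 12.16, and it remained at 11.49 as the median over its 10 sets. Mpc1, of the mitochondrial pyruvate carrier, was at 10.27 ± 0.31. Pdk2 (8.79 ± 0.29) and Pdk4 (7.52 ± 0.28), kinases that shut off pyruvate dehydrogenase, were both above background. Pcx, pyruvate carboxylase, by which astrocytes refill the cycle, read 5.88, 6.42, 5.95 and 5.71. In this list 18 of the 27 genes were highest on fed array 2, where 32.3% of all genes were highest on that array.

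Fatty acid oxidation genes were called in 20 of 21 (95.2%, against 55.5% of all genes), between 5.18 and 7.82. Hadhb, of the trifunctional protein, was at 7.82 ± 0.17. Cpt1a, the rate-limiting carnitine acyltransferase of most tissues, read 6.0, 6.17, 5.93 and 5.82, and Cpt1c, its brain form that lies in the endoplasmic reticulum, read 7.42, 6.70, 7.25 and 7.25. Cpt2, the inner membrane enzyme, was at 5.93 ± 0.01. Ehhadh, the peroxisomal bifunctional enzyme, was not called (4.14 ± 0.22). The spread between arrays was small in this list, with a median SD of 0.12 over its members.

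Genes of fatty acid synthesis, elongation and desaturation were called in 19 of 23 (82.6%, against 55.5% of all genes), with a median of 6.63. Me1, which supplies NADPH, was at 9.50 ± 0.37 by the highest of 3 sets and 6.48 by their median. Fasn, fatty acid synthase, was at 8.06 ± 0.13 and Fads2, the delta-6 desaturase of polyunsaturated fatty acids, at 7.36 ± 0.12. Scd2, the stearoyl-CoA desaturase of brain, read 9.33, 8.78, 9.54 and 9.47, and Scd1 read 8.71, 8.09, 8.73 and 8.83. Both were lowest on fed array 2, like Scd3 (6.86, 6.03, 7.05 and 7.14), while Scd4 was within the background (4.28 ± 0.08). These desaturases are close paralogs whose probes may not tell them apart. Elovl2, which elongates polyunsaturated acids on the way to docosahexaenoic acid, was at 6.97 ± 0.12, and Elovl3 and Elovl6 were not called.

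Fatty acid uptake and binding genes were called in 11 of 20, a share of 55% beside 55.5% of all genes, and divided by family member. Fabp5, the epidermal binding protein that is also made in brain, read 8.39, 8.16, 8.61 and 8.55, Fabp3, the heart form, 7.48, 7.08, 7.67 and 7.62, and Fabp7, the brain form, 6.38, 6.30, 6.35 and 6.37. The liver, gut and fat cell forms Fabp1, Fabp2 and Fabp4 were within the background, with means of 2.37, 2.38 and 2.83. Acsbg1, an acyl-CoA synthetase of astrocytes, was at 7.72 ± 0.16 and Acsl6, the brain form that activates docosahexaenoic acid, at 7.47 ± 0.08. The scavenger receptor Cd36 was at 2.97 ± 0.21 and was not called.

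Cholesterol synthesis was called in 19 of 20 measured genes (95%, against 55.5% of all genes), with a median of 6.87, the exception being Idi2. Srebf2, the transcription factor that drives the pathway, read 10.63, 10.87, 10.79 and 10.69 by the highest of 5 sets and 6.63 by their median. Hmgcs1, which starts the pathway in the cytosol, was at 10.21 ± 0.27 and Fdft1, squalene synthase, at 9.86 ± 0.14. Their medians over 2 sets each were 8.72 and 7.99. Sc5d, a late desaturase with a single set, was at 8.68 ± 0.07. Of the 18 genes of transport and clearance 15 were called (83.3%), with a median of 6.73. Apoe, the main apolipoprotein of brain, read 8.81, 8.93, 9.10 and 8.94, and Clu, apolipoprotein J, was at 8.49 ± 0.12. Abca1, which exports cholesterol to them, was at 7.64 ± 0.16 by the highest of 4 sets and 6.14 by their median. Cyp46a1, the neuronal hydroxylase that clears cholesterol from brain, read 7.56, 6.91, 7.61 and 7.67. Transcripts of both the supplying and the clearing side were therefore above background.

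Etnppl, the phosphoethanolamine phospholyase on which the study centres, read 6.06, 6.02, 6.84 and 6.70 on fed arrays 1 to 4 (6.40 ± 0.42), with an adjusted p of 1.85e-05 by limma for a level above background. Its values fell into a lower and a higher pair, and its SD was above the median of 0.16 for all genes. At this level it ranked 3626 of 20259 genes. Around it, 18 of 20 genes of phosphoethanolamine and phosphatidylethanolamine metabolism were called (90%, against 55.5% of all genes), with a median of 5.59. Pcyt2, which activates phosphoethanolamine for synthesis of the phospholipid, read 9.54, 9.54, 9.62 and 9.73 and was the highest of the list. Selenoi, which joins it to diacylglycerol, was at 7.03 ± 0.09 and Etnk1, the ethanolamine kinase, at 5.45 ± 0.13. Phykpl, a paralog of Etnppl that acts on phosphohydroxylysine, was at 5.88 ± 0.12. Pemt, by which the liver methylates phosphatidylethanolamine to phosphatidylcholine, was not called (4.32 ± 0.23).

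Serine and one-carbon genes were called in 15 of 19 (78.9%, against 55.5% of all genes), with a median of 6.32. Phgdh, the first enzyme of serine synthesis, which in brain is mostly astrocytic, read 11.33, 12.39, 11.57 and 11.34 by the highest of 8 sets and 7.14 by their median. Psat1, the next enzyme, was at 6.55 ± 0.08. Gldc, of the glycine cleavage system, was at 6.61 ± 0.24, and Slc7a10, a transporter for small neutral amino acids in astrocytes, read 7.92, 7.77, 8.15 and 7.96. Dao, which degrades D-serine, and Slc6a5, the neuronal glycine transporter of brainstem and spinal cord, were within the background (3.36 ± 0.09 and 3.14 ± 0.03). All 17 measured genes of proline, branched-chain and sulphur amino acid metabolism were called, with a median of 5.83.

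Metabolic nuclear receptors and coactivators were called in 9 of 17, a share of 52.9% that is near the 55.5% of all genes. Ppara, the fasting-responsive receptor for fatty acids, read 7.11, 7.10, 7.29 and 7.20 by the highest of 4 sets and 4.84 by their median. Pparg, the receptor of fat cells, was at 3.24 ± 0.03 and was not called. Nr3c1, the glucocorticoid receptor, was at 5.54 ± 0.06, and of 14 measured glucocorticoid target genes 12 were called.

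**Figure D5:**
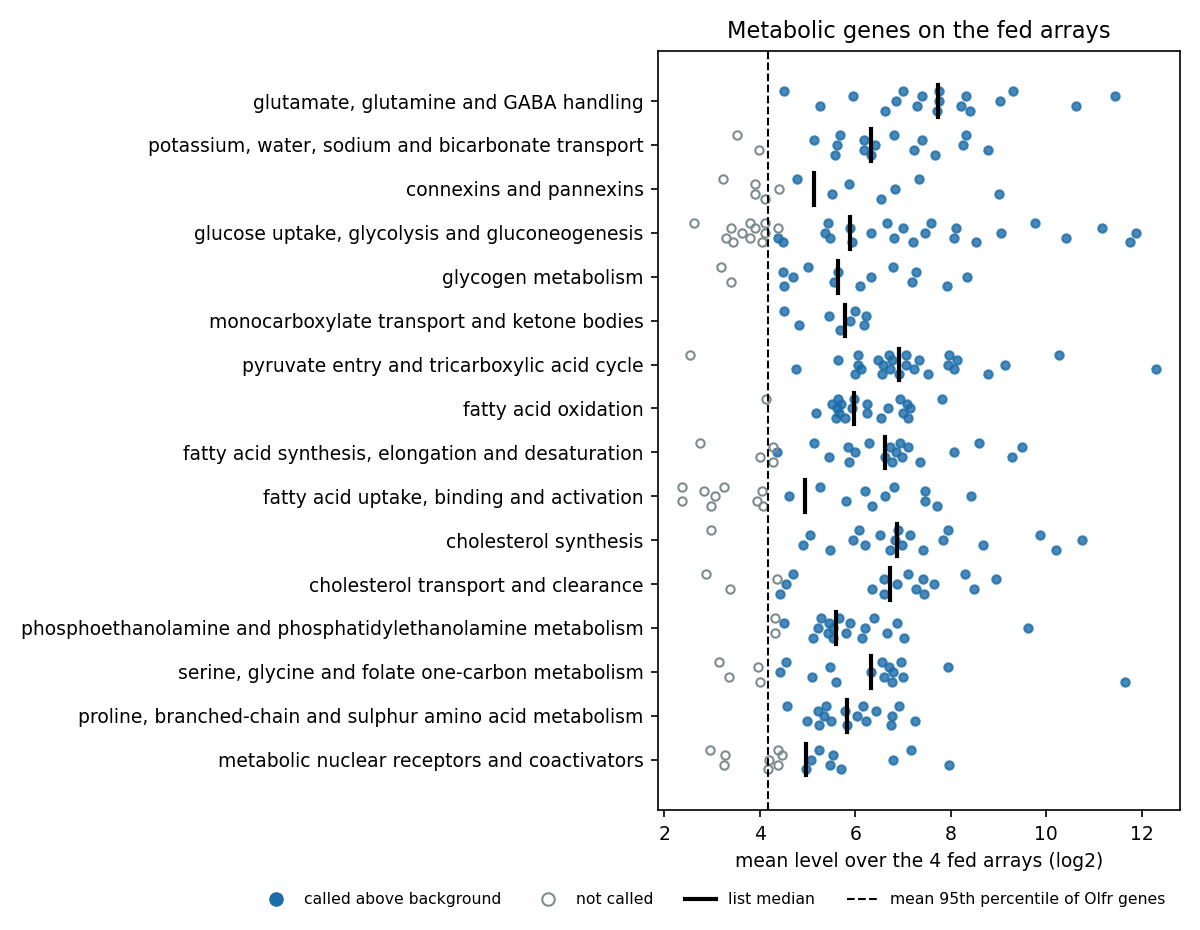
Mean level over the 4 fed arrays (horizontal axis, log2) of each measured metabolic gene, by list; filled points were called above background by limma, open points were not, black bars are list medians and the dashed line is the mean background of 4.18. Glutamate handling has the highest median (7.73), and fatty acid uptake (4.94) and nuclear receptors (4.96) have the lowest.

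Signalling and regulatory genes of astrocytes were largely above background. Of 18 astrocyte receptors 17 were called (94.4%, against 55.5% of all genes). They were led by Ednrb (9.92 ± 0.22), the endothelin receptor B, S1pr1 (9.46 ± 0.12), for sphingosine-1-phosphate, and Ntsr2 (9.42 ± 0.21), for neurotensin. Lepr, the leptin receptor, was at 3.36 ± 0.16. Transcription factors of astrocytes and the Notch pathway were called in 14 of 15, among them Sox2 (8.72 ± 0.21) and Sox9 (6.89 ± 0.15), which maintain glial identity, and Nfia, which starts astrocyte formation, was the exception (3.83 ± 0.13). Rorb, a nuclear receptor, read 9.03, 10.52, 9.27 and 10.07, a wide spread for so high a level.

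Genes that reactive astrocytes switch on were called in 9 of 22, a share of 40.9% beside 55.5% of all genes. Serpina3n, a secreted protease inhibitor of reactive astrocytes, read 9.76, 9.12, 9.85 and 8.47, and Vim, vimentin, was at 5.96 ± 0.22. Lcn2, lipocalin 2, Cxcl10, a chemokine, and Timp1, an inhibitor of metalloproteases, had means of 3.42, 3.67 and 3.59 and were within the background. Secreted synapse-forming and phagocytic genes were called in 10 of 13, with Thbs4, a thrombospondin, at 8.22 ± 0.18 and Megf10, an engulfment receptor, at 5.79 ± 0.05.

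Rpl22, the gene that carries the tag in Ribo-Tag mice, read 8.67, 8.22, 8.46 and 8.52, and its value does not tell tagged from untagged mRNA. Counting it, 10 of 10 measured ribosomal protein genes of its list were called. Sets for mitochondrial transcripts, which cytosolic ribosomes do not translate, were also bright. ND6 was at 11.72 ± 0.14 and COX2 at 10.89 ± 0.05, or 8.60 by the median over its 2 sets. So was Malat1, a noncoding RNA kept in the nucleus, which read 8.82, 9.31, 8.25 and 8.46. Sets for both kinds of RNA thus read above background, though only 2 of the 5 measured nuclear noncoding RNAs were called (40%, against 55.5% of all genes). What else may hybridise to these sets was not tested. All 5 noncoding RNAs were highest on fed array 2, where 32.3% of all genes were highest.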

How the data were processed

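Pull-downs from 4 fed samples were analysed, each on 1 Affymetrix mouse exon array. The RNA was amplified with the NuGEN Pico kit and labelled with biotin. The deposited log2 values were made by the authors with RMA in Partek on mm9 (submitters' processing notes), which subtracts background, gives all arrays the same distribution and combines each set's probes into 1 value. The log base is not given in the sources used here and was read as log2. Of 115830 probe sets, 25539 were paired with 1 gene symbol by GEO's platform annotation, 2300 with several and 87991 with none; only those with 1 symbol were used, which measured 20259 genes, 3109 of them by several sets.

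Each array's 95th percentile of the 862 Olfr genes was subtracted, and limma 3.58.1 in R 4.3.3 (lmFit and eBayes, intercept only) tested the 4 differences against 0, one-sided, with Benjamini-Hochberg adjustment over all genes at 0.05. The fit was tried on simulated data in which genes without signal were set well below the background. False calls among genes near the background were therefore not tested. No groups of mice were compared. The number of arrays limits the precision. The text names the 25 highest genes, the 15 called genes with the largest SD, the 5 given markers and members of the lists (of lists with over 25 measured members the 8 highest, the 6 lowest and those not called, and isozymes of a step), or some of these. The members, lists and tests were chosen with earlier results of these data known. Promoters came from RefSeq.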

Additional observations from a re-analysis of the deposited data

Results flagged for a closer look

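The gap of the highest or lowest of the 4 fed arrays to its nearest neighbour, over the whole range, was compared with Dixon's critical value for 4 samples in 54 list means and in the 178 genes named here. It was exceeded in 6 lists and 13 genes, on fed array 2 in 13 of these 19. Chance gives about 1 in 20, but only for items not chosen for their spread. Some of these genes were named for a large SD and the list means share genes with them, so that the count is a description and no test.

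Fed array 2 was the low one for the striatum list (mean 4.90, against a median of 5.13 on the other 3 arrays), glutamate handling (7.72 against 7.76) and connexins (5.34 against 5.48). Its low genes were Cacng7 (7.54 against 10.27), Usf2 (6.13 against 9.10), Aldoc (9.56 against 9.84), Mbp (7.17 against 7.53), Fbp2 (3.34 against 3.47), Slc16a7 (5.79 against 6.40), Scd1 (8.09 against 8.73) and Cyp46a1 (6.91 against 7.61). It was the high one for Ogdh (12.62 against 12.20) and Alb (3.55 against 3.14, both within background).

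On fed array 1 the list of fatty acid synthesis was low (6.24 against 6.33) and the 4 sex chromosome transcripts were high (3.68 against 3.49). On fed array 4 the glucocorticoid targets (6.01 against 6.10) and Myh1 (7.44 against 7.57) were low and Gfap was high (8.17 against 8.01). On fed array 3 Lepr was low (3.13 against 3.43, both within background).

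Probe sets with no gene symbol entered no list. Of these 87991 sets, 20476 (23.3%) lay above the Olfr background on all 4 fed arrays.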

How the results depend on the processing

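Of the 178 genes named here, the call was the same for 174 against the Olfr 99th percentile, for 172 against the vomeronasal receptors, for 176 with the median over probe sets, for 177 with array weights, for 177 without fed array 2, and for all 178 when arrays were centred on their medians (which the later subtraction of the background undoes), when each gene kept its own variance or when fed array 1, 3 or 4 was left out. With the median over sets, Myh1 (-1.14) and Pygb (-0.09) fell below background. Against the 99th percentile Flt1, Acta2, Pck2 and Etnk1 lost their calls. Against the vomeronasal receptors Gja1, Kdr, Hk3, Ehhadh, Scd4 and Pemt were called, and Pemt also with array weights and without fed array 2.

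The number of genes called was 6846 against the 99th percentile, 12817 against the vomeronasal receptors and between 10773 and 11651 with the median over sets, centring, array weights or unmoderated variances, 9140 of the 17150 genes with 1 set, and 10850 to 11521 when 1 array was left out. Lying above background on all 4 arrays, with no test, was met by 11242. Against the 99th percentile, where 6846 of 20259 genes were called, some lists lost many calls. It left 6 of 12 precursor, 0 of 5 perivascular macrophage, 3 of 18 endothelial and 4 of 14 mural markers called by limma. Of blood markers 0 of 4 and of dentate progenitor markers 1 of 8 stayed called. So did 5 of 8 genes of ketone bodies and monocarboxylates and 11 of 17 of proline, branched-chain and sulphur metabolism. Against the vomeronasal receptors 12817 of 20259 genes were called. They gave 4 of 5 perivascular macrophage and 2 of 4 blood markers and 14 of 17 nuclear receptors and coactivators. Among genes with 1 set, 7 of fatty acid uptake and 11 of cholesterol synthesis were called, beside 9140 of all 17150. Members with several sets were not tested there, so these counts cannot be set beside those of the full lists.

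The median over sets moved list medians to 7.96 for astrocytes, 3.88 for blood, 4.26 for dentate progenitors, 7.35 for glutamate, 5.64 for glucose, 5.56 for glycogen, 6.72 for the tricarboxylic acid cycle, 6.29 for fatty acid synthesis, 4.05 for fatty acid uptake, 6.40 for cholesterol synthesis, 6.60 for its transport and 4.84 for nuclear receptors. Leaving out 1 array in turn gave medians of 7.97 to 8.08 for astrocytes, 4.14 to 4.45 for perivascular macrophages, 7.70 to 7.79 for glutamate, 6.28 to 6.36 for potassium and water, 5.81 to 5.89 for glucose, 5.57 to 5.73 for glycogen, 6.88 to 6.99 for the tricarboxylic acid cycle, 5.93 to 6.03 for fatty acid oxidation, 4.90 to 5.02 for fatty acid uptake, 6.70 to 6.85 for cholesterol transport, 5.57 to 5.62 for phosphoethanolamine, 6.31 to 6.35 for serine and 5.83 to 5.87 for proline. The cause of these shifts was not tested. No paired analysis was possible because only the fed arrays were analysed and no groups were compared.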

Other observations

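Immediate early genes, which neuronal activity and handling induce within minutes, were called in 17 of 19 (median 6.10), against 55.5% of all genes. Of the 19, 12 were highest on fed array 1 and 11 lowest on fed array 2, where 20.6% and 37.1% of all genes were. Jun was at 8.42 ± 0.07 (SD, n = 4), Arc, which travels to active synapses, at 8.0 ± 0.27 and Fos at 5.72 ± 0.33. Markers of dentate progenitors and immature neurons were called in 4 of 8 (50%, near the 55.5% of all genes), led by Sox11 (6.47 ± 0.17), while Mki67, the proliferation marker, was within the background (3.65 ± 0.29).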
